A study of Danio rerio with 5 samples.

Results

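The 35 genes described here serve the division of cells: 20 of them act in mitosis or on the way into it, and 15 act in DNA replication or in the supply of its building blocks. They were chosen by gene symbol from a named list. All 35 were measured among the 36351 genes of the single-cell libraries, and 34 among the 17540 genes of the authors' table of bulk libraries, in which rrm2 was not analysed. The cells were sorted from zebrafish larvae at 5 days post fertilization by a fluorescent reporter of pdgfrb, the gene of the platelet-derived growth factor receptor of pericytes and other mesenchymal cells. A group of 2 single-cell libraries came from larvae with the green reporter Tg(pdgfrb:egfp)ncv22, and a group of 3 bulk libraries came from larvae with the yellow reporter Tg(pdgfrb:citrine)s1010 that also carried um148, a mutation which the strain label writes as an allele of pdgfb. Whether the um148 larvae were homozygous, whether larvae were pooled and whether libraries came from separate clutches is not given in the labels, so p-values measure only the spread between these libraries, which may be technical. The reporter is the same in kind, but not in line, between the bulk and the single-cell group, and the groups were not compared with each other.

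A cell that will divide first copies its genome in S phase. The Mcm2 to Mcm7 proteins form the helicase that opens the double helix after cdc6 has helped to load it, gins2 is a subunit of the complex that activates the helicase, pcna is the sliding clamp of the polymerases, rpa2 covers single strands, fen1 and lig1 finish the lagging strand, and rrm1, rrm2 and tyms make deoxynucleotides. Mitosis follows under cdk1 and its cyclins, the aurora and polo kinases assemble the spindle, and the anaphase-promoting complex, with cdc20 and ube2c, ends it by marking cyclins and securin for destruction. Transcripts of the replication genes are known to accumulate towards and through S phase and those of the mitosis genes in the interval between S phase and mitosis, so the groups are described separately.

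Of 12121 and 10182 cell barcodes, 5653 and 7358 were kept in single-cell libraries 1 and 2, with medians of 5689 and 6062 unique molecular identifiers (UMIs, each a counted transcript molecule) per cell. In library 1, 3976 barcodes were removed for a mitochondrial share over 10%, against 407 in library 2. The libraries shared 11 barcode sequences among kept cells. Cells were assigned to 19 classes by UMIs of at least 3 marker genes of a class, none of them a gene of the list, and 17 classes had at least 20 cells in each library and were tested. Of 38 further marker genes not used for the assignment, 36 were above the median of the other classes in both libraries, and 25 were highest in their own class. In smooth muscle, the cilp and myoc class, the tcf21 and foxd1 class and broad mesenchyme neither further marker was highest. The markers below the median were fras1 in fin mesenchyme (rank 10) and tyrobp in immune cells (0 CPM). The names of these classes thus have weaker backing from the further markers. The class names below say which markers the cells held. Class sizes ran from 29 pigment cells to 1258 broad mesenchyme cells in library 1. The mitochondrial limit removed cells of some classes more than others in library 1. With a limit of 20% it held 2052 chondrocytes and 850 smooth muscle cells, against 563 and 421 at 10%. Its pericytes were 264 against 260. In library 2 there were 740 chondrocytes and 571 smooth muscle cells, against 737 and 556. The make-up of library 1 by class thus depends on this limit. Counting intervals and floors cover counting error only.

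The division genes were concentrated in the glia and neural progenitor class (cells with markers such as sox2, sox3, her4.1 and gfap) and in the dlx and shox mesenchyme class (cells with dlx and shox transcription factor genes, known from pharyngeal arch and fin mesenchyme). Summed over the 20 mitosis genes, the level was 2016 and 2080 CPM (a class's UMIs of the genes scaled by all its UMIs) in the glia and neural progenitor class in libraries 1 and 2, and 1032 and 1243 CPM in the dlx and shox class. The endothelial class followed with 742 and 664 CPM, the neuron class with 389 and 475 CPM and the pericyte class with 363 and 418 CPM. The first 3 classes in this order did not overlap with each other or with any other tested class, whereas neurons and pericytes overlapped.

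At the other end, the summed mitosis level was 14.1 and 70.8 CPM in skeletal muscle, 28.0 and 111 CPM in pigment cells and 52.2 and 122 CPM in fin mesenchyme. These 3 lowest classes overlapped, and in each of them library 2 was higher than library 1. The summed level of the 15 replication genes had the same upper end, with 2733 and 2512 CPM in the glia and neural progenitor class and 1543 and 1675 CPM in the dlx and shox class. Pericytes came next by their mean, with 780 and 954 CPM, and overlapped with other classes, among them the tcf21 and foxd1 fibroblast class at 779 and 841 CPM. Skeletal muscle was lowest with 74.5 and 68.6 CPM.

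**Figure D1:**
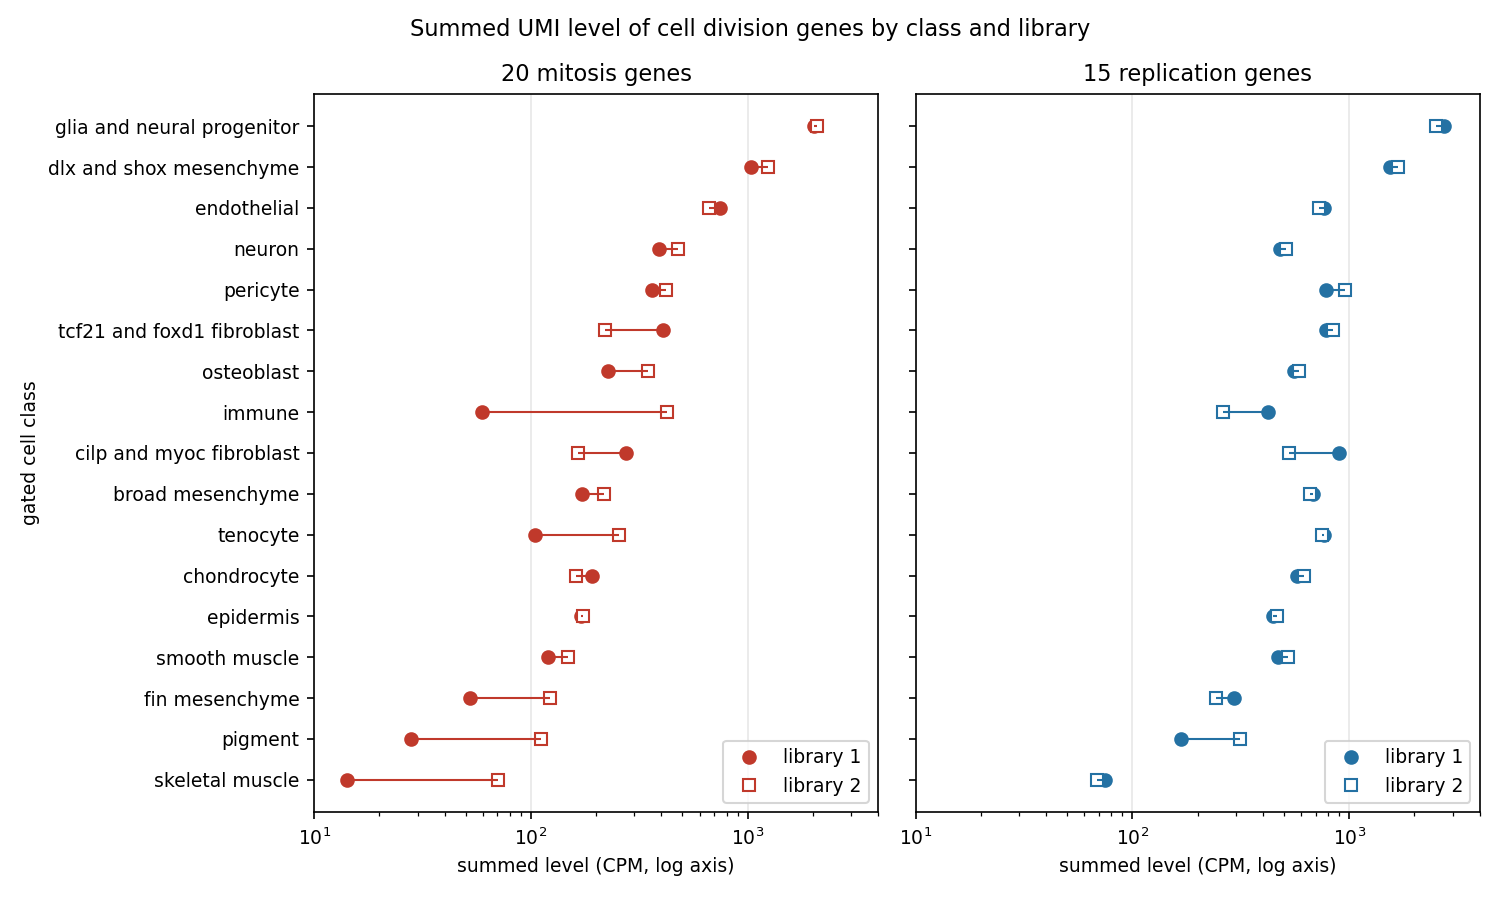
Summed level of the 20 mitosis genes (left) and the 15 replication genes (right) in each of the 17 tested classes, in CPM on a log axis; each class has 1 point per library, joined by a line, and classes are ordered by their mean mitosis level. The glia and neural progenitor and the dlx and shox classes stand above the rest in both panels. The neuron class stands beside the pericyte class for mitosis but below it for replication. Skeletal muscle is at the bottom of both by its mean CPM, which leaves out the TMM factors.

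The balance of the gene groups differed between classes. There were 1.36 and 1.21 replication UMIs for each mitosis UMI in the glia and neural progenitor class, 1.49 and 1.35 in the dlx and shox class, 1.24 and 1.08 in neurons and 1.03 and 1.1 in endothelial cells. The ratio was 2.15 and 2.28 in pericytes, 3.91 and 3.51 in smooth muscle, 3.02 and 3.83 in chondrocytes and 3.95 and 3.03 in broad mesenchyme. The mesenchymal and mural classes other than dlx and shox mesenchyme thus held more replication transcript per mitosis transcript than dlx and shox mesenchyme. Osteoblasts were lowest among them by their mean, at 2.44 and 1.69. The libraries differed widely in tenocytes (7.27 and 2.94), fin mesenchyme (5.61 and 1.99) and the tcf21 and foxd1 class (1.91 and 3.81). A high ratio was not particular to these classes, with 2.62 and 2.65 in epidermis and 6.0 and 2.81 in pigment cells. These differences were not tested.

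All 35 genes were highest in the glia and neural progenitor class among the 17 tested classes, and for 19 of the mitosis and all 15 replication genes neither library of this class overlapped with the class in second place. That second class was dlx and shox mesenchyme for 18 mitosis and 15 replication genes, and the endothelial class for the other 2. Skeletal muscle was the lowest class by CPM, without TMM factors, for 16 mitosis and 13 replication genes. How many of all genes tested rank in these ways was not counted, so these counts of genes have no background beside them. Differences were tested with edgeR's quasi-likelihood test on UMI counts summed per class and library, each class minus the mean of the other classes on the log2 scale, with Benjamini-Hochberg adjustment over 15787 genes and a threshold of 0.05. All 35 genes passed the filter on low counts. Some genes had no UMI in a class: bub1 in the cilp and myoc and the pigment class, cdc6 in immune cells and cdc20 in skeletal muscle. Their fitted levels there lie below a count floor and enter the mean of the other classes. This enlarges the differences of bub1 in endothelial cells, of cdc20 in dlx and shox mesenchyme, neurons and pericytes, and of cdc6 in chondrocytes.

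**Figure D2:**
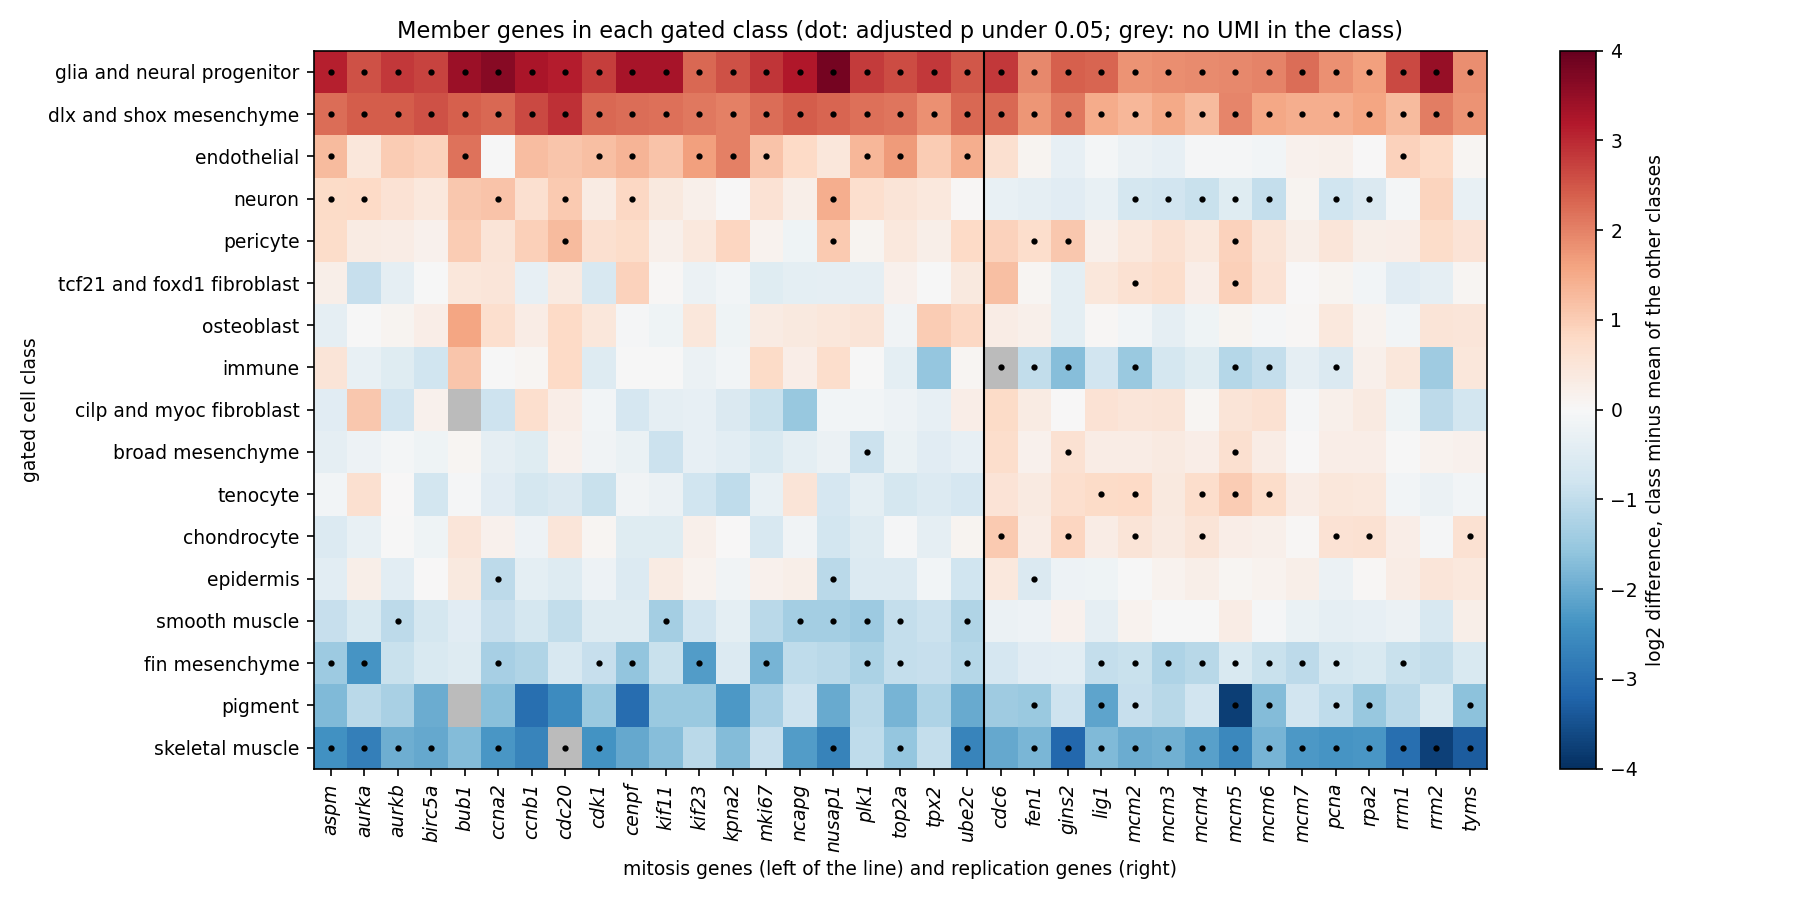
Log2 difference of each gene (columns; mitosis genes left of the line, replication genes right) between a class (rows) and the mean of the other classes. A dot marks an adjusted p under 0.05 and grey a gene with no UMI in the class; the top 2 rows are filled with dots in red, the bottom row carries 24 dots in blue, and the neuron row is red with dots at 6 mitosis genes and blue with dots at 7 replication genes.

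In the glia and neural progenitor class all 35 genes were higher than in the other classes, where 28.6% of all genes tested were called higher. The median log2 difference was 2.84 for the mitosis genes and 1.93 for the replication genes, beside 0.15 for all genes tested. The microtubule-bundling spindle gene nusap1 stood at 139 and 161 CPM in libraries 1 and 2 of this class, against 46.2 and 50.9 CPM in the dlx and shox class. Its log2 difference was 3.83 ± 0.25 (SE derived from the test of all class sums, n = 2 libraries of the class; adjusted p = 4.5e-12). The cyclin A gene ccna2, which acts with Cdk kinases in S phase and at the entry into mitosis, was at 101 and 112 CPM, with a log2 difference of 3.63 ± 0.22 (adjusted p = 1.1e-12). The ribonucleotide reductase subunit gene rrm2 was at 201 and 282 CPM, with a log2 difference of 3.48 ± 0.33 (adjusted p = 4.3e-09). These are the 3 largest differences in the class, and in each the libraries lay above every other tested class.

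The smallest differences in the class were still past the threshold. They were 1.63 ± 0.20 for rpa2, the single-strand binding subunit (175 and 159 CPM, adjusted p = 2.6e-07), 1.79 ± 0.13 for the helicase gene mcm2 (200.4 and 134 CPM, adjusted p = 3e-11) and 1.84 ± 0.15 for pcna (625 and 586 CPM, adjusted p = 4.6e-10). For mki67, the gene of the proliferation marker Ki-67 that coats mitotic chromosomes, the class held 387 and 376 CPM, and for top2a, the topoisomerase that untangles sister chromatids, 155 and 158 CPM. The other genes of the pathway moved with them: 47 of 47 other mitosis genes and 35 of 35 other replication genes tested were higher, led by the mitotic transcription factor gene foxm1 (log2 difference 4.15 ± 0.44, adjusted p = 4.5e-08) and the licensing factor gene cdt1 (3.30 ± 0.32, adjusted p = 7.8e-09). Of 17 genes of G1 and S entry, 12 were higher, among them cyclin E gene ccne2 (3.57 ± 0.30, adjusted p = 9.2e-10). Of 19 cell cycle inhibitor genes, 7 were lower, where 15.5% of all genes tested were called lower, and 3 were higher, a smaller share than that of all genes, with tob1b (-1.46 ± 0.14, adjusted p = 4.7e-09) and the Cdk inhibitor gene cdkn1ba (-1.35 ± 0.33, adjusted p = 0.0014) furthest down. The reporter's own gene, pdgfrb, stood at 12.1 and 21.4 CPM in this class, against 244 and 236 CPM in pericytes.

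In dlx and shox mesenchyme, too, all 35 genes were higher than in the other classes, where 15.8% of all genes tested were called higher. The median log2 difference was 2.30 for the mitosis genes and 1.55 for the replication genes, beside 0.06 for all genes tested. The activator of the anaphase-promoting complex, cdc20, was at 30.6 and 37.2 CPM and had the largest difference, 2.92 ± 0.30 (adjusted p = 1.2e-07). Its size is enlarged by skeletal muscle, where cdc20 had no UMI. The cyclin B gene ccnb1, partner of cdk1, was at 36.7 and 41.6 CPM (2.63 ± 0.36, adjusted p = 5.5e-06), and birc5a, the survivin gene of the chromosomal passenger complex, was at 34.5 and 41.2 CPM (2.56 ± 0.21, adjusted p = 1.7e-09). In all 3 genes both libraries were above every class other than glia and neural progenitors.

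The smallest differences here were those of the helicase gene mcm4 (1.25 ± 0.17, adjusted p = 4.2e-06), of rrm1, the large subunit of ribonucleotide reductase (1.28 ± 0.19, adjusted p = 1.9e-05), and of mcm2 (1.33 ± 0.13, adjusted p = 4.7e-08). Of the other genes of the pathway, 45 of 47 mitosis genes and 33 of 35 replication genes were higher, with the mitotic kinase gene melk (2.96 ± 0.37, adjusted p = 2.6e-06) and the replisome gene wdhd1 (2.23 ± 0.34, adjusted p = 2.2e-05) in the lead. Of the G1 and S entry genes, 13 of 17 were higher. Of the inhibitor genes, 5 of 19 were higher, among them cdkn1ca (2.06 ± 0.36, adjusted p = 0.00014), and 6 were lower (7.06% of all genes tested), among them tob1a (-0.97 ± 0.16, adjusted p = 4.4e-05). This class held pdgfrb at 82.3 and 85.0 CPM. The 7 pericyte markers summed to 1278 and 1360 CPM in it, against 2067 and 2051 CPM in the pericyte class. Its own 8 markers summed to 1734 and 1712 CPM, and the 8 osteoblast markers to 244 and 14.6 CPM. The part of the pericyte and osteoblast markers in the result of the dlx and shox class was not tested. With its library 2 left out, 33 of the 35 genes were called.

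The glia and neural progenitor and the dlx and shox class were also set directly against each other, a comparison added after the levels had been seen. Of the 35 genes, 6 were higher in glia and neural progenitors, where 12.6% of all genes were called higher, and the median log2 difference over the 35 genes was 0.50, beside 0.12 over all genes. The 6 were nusap1 (1.41 ± 0.38, adjusted p = 0.00627), rrm1 (1.28 ± 0.26, adjusted p = 0.000545), ccna2 (1.25 ± 0.31, adjusted p = 0.00384), the spindle motor gene kif11 (1.03 ± 0.35, adjusted p = 0.0334), the DNA ligase gene lig1 (0.81 ± 0.25, adjusted p = 0.018) and mcm7 (0.76 ± 0.27, adjusted p = 0.0439). With the library as a block, which pairs the classes of a library, 10 of the 35 were called, and with the glia and neural progenitor class reduced to 1 library 3 or 1 were called. The classes differed in their G1 cyclins: ccnd1 was higher in glia and neural progenitors (1.62 ± 0.16, adjusted p = 2.4e-08) and ccnd2a was higher in dlx and shox mesenchyme (-1.50 ± 0.21, adjusted p = 6e-06), both genes of D-type cyclins that carry growth signals to the cycle.

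In the endothelial class (33 and 42 cells) 10 of 20 mitosis genes and 1 of 15 replication genes were higher, where 11.4% of all genes tested were called higher. Their median log2 differences were 1.16 and 0.01, and the difference between the gene groups was not tested. The spindle checkpoint kinase gene bub1 was at 12.1 and 8.3 CPM (log2 difference 2.17 ± 0.67, adjusted p = 0.0273), the importin gene kpna2, which carries spindle factors, at 98.6 and 52.3 CPM (2.0 ± 0.42, adjusted p = 0.00109) and top2a at 81.3 and 96.3 CPM (1.71 ± 0.32, adjusted p = 0.000314). The place of bub1 before kpna2 and top2a rests in part on the other classes in which it had no UMI. The replication gene was rrm1, at 83.0 and 34.4 CPM (0.92 ± 0.25, adjusted p = 0.0102). Of the other mitosis genes, 15 of 47 were higher, with the midzone genes prc1b (2.87 ± 0.63, adjusted p = 0.00212) and prc1a (2.45 ± 0.57, adjusted p = 0.00315) in the lead, and of the other replication genes uhrf1 alone was (0.86 ± 0.21, adjusted p = 0.0053). Of the 35 genes, 2 were called without library 1 of the class, 3 without library 2, and 7 when doublets were kept. The 3 and 6 endothelial cells with UMIs of at least 2 mitosis genes, at 1000 UMIs per cell, had medians of 36426 and 25704 UMIs before thinning, against 13137 and 14553 in the other endothelial cells, and the class also held markers of other classes. The 7 pericyte markers summed to 1114 and 1125 CPM in it, against 2103 and 2363 CPM for the 8 endothelial markers. The 8 epidermis markers were at 815 and 469 CPM, the 8 glia and neural progenitor markers at 358 and 278 CPM, and the 8 pigment markers at 13.8 and 995 CPM. The part of depth, doublets and these markers in the result was not tested.

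Neurons, which are held to have left the cell cycle, showed opposite signs for the gene groups. Of the mitosis genes, 6 of 20 were higher (37.4% of all genes tested were called higher in this class), and of the replication genes 7 of 15 were lower (18.0% of all genes were called lower). The median log2 differences were 0.57 and -0.46, beside 0.30 over all genes. The share of mitosis genes called higher lay below that of all genes. The largest differences upwards were those of nusap1 at 30.8 and 33.1 CPM (1.46 ± 0.31, adjusted p = 0.000274), ccna2 at 21.4 and 20.7 CPM (1.15 ± 0.28, adjusted p = 0.0011) and cdc20 at 9.4 and 13.4 CPM (1.05 ± 0.39, adjusted p = 0.023).

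Downwards, the helicase genes led in neurons: mcm6 was at 27.2 and 33.4 CPM (-0.95 ± 0.25, adjusted p = 0.00197) and mcm4 at 25.1 and 30.6 CPM (-0.89 ± 0.21, adjusted p = 0.000802), followed by pcna at 115.5 and 102 CPM (-0.80 ± 0.20, adjusted p = 0.00142). Of the other replication genes 11 of 35 were lower, where 18.0% of all genes tested were called lower. Of the other mitosis genes 9 of 47 were higher, a smaller share than the 37.4% of all genes tested. The G1 kinase gene cdk4 was lower (-1.87 ± 0.29, adjusted p = 4e-06). The neuron class held 261 and 203 CPM of the 8 glia and neural progenitor markers, against 3115 and 4242 CPM in the glia and neural progenitor class, and their part in the mitosis level was not tested. The calls upwards fell to 3 without library 1 of the class and to 1 without library 2, and the calls downwards were 6 and 8.

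Pericytes, the mural cells of capillaries with markers such as kcnj8, abcc9 and notch3, were compared with the other classes and with smooth muscle, their neighbours on larger vessels. Against the other classes 2 mitosis and 3 replication genes were higher, 5 of 35, where 10.8% of all genes tested were called higher. These were cdc20 at 13.7 and 11.4 CPM (1.25 ± 0.39, adjusted p = 0.0352), nusap1 at 28.6 and 18.2 CPM (1.06 ± 0.35, adjusted p = 0.0463), gins2 at 22.7 and 20.4 CPM (1.07 ± 0.20, adjusted p = 0.000352), mcm5 at 62.7 and 69.3 CPM (0.92 ± 0.15, adjusted p = 8.76e-05) and the flap endonuclease gene fen1 at 48.3 and 66.4 CPM (0.69 ± 0.15, adjusted p = 0.00276). The 2 of 20 mitosis genes were a smaller share than that of all genes tested. The 3 of 15 replication genes and the 5 of 35 genes were larger shares. These shares were not tested against that of all genes. The median log2 differences were 0.48 for the mitosis and 0.51 for the replication genes, beside 0.09 over all genes. For the alternatives that follow, the share of all genes called higher was not counted. Without library 2 of the class 2 genes were called, with no filter on low counts 15, and with a stricter gate of 4 markers 14.

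In smooth muscle, which wraps larger vessels and the gut, 7 of 20 mitosis genes and none of the 15 replication genes were lower in edgeR's test (0 replication genes also at an unadjusted p under 0.05 and 0 by DESeq2), where 2.15% of all genes tested were called lower. The lowest were plk1, the polo kinase gene, at 3.4 and 3.6 CPM (-1.44 ± 0.35, adjusted p = 0.00304), the condensin gene ncapg at 2.4 and 3.7 CPM (-1.35 ± 0.43, adjusted p = 0.0234) and nusap1 at 3.2 and 5.0 CPM (-1.35 ± 0.42, adjusted p = 0.0201). With the library as a block 11 were called, without library 1 or library 2 of the class 0 and 1, and with doublets kept 1. Set directly against smooth muscle, pericytes were higher in 8 mitosis and 4 replication genes, 12 of 35, where 4.85% of all genes tested were called higher; this comparison was added after the levels had been seen. Its largest differences were those of nusap1 (2.26 ± 0.49, adjusted p = 0.00221), cdc20 (2.12 ± 0.49, adjusted p = 0.00371) and the ubiquitin conjugase gene ube2c (1.87 ± 0.49, adjusted p = 0.0106), and without library 1 or 2 of the pericyte class 6 and 2 genes were called. The G1 kinase gene cdk6 was higher in pericytes in both comparisons (1.11 ± 0.22, adjusted p = 0.0009, against all other classes, and 1.44 ± 0.30, adjusted p = 0.0012, against smooth muscle), as was the Cdk inhibitor gene cdkn1cb (1.16 ± 0.11, adjusted p = 5.4e-08, and 0.86 ± 0.17, adjusted p = 0.00072).

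In tenocytes, chondrocytes, the tcf21 and foxd1 fibroblast class and broad mesenchyme, calls fell on replication genes, apart from plk1 in broad mesenchyme. In tenocytes, the cells of tendons, 5 of 15 replication genes were higher (7.13% of all genes tested were called higher), led by mcm5 at 51.4 and 68.6 CPM (1.02 ± 0.17, adjusted p = 0.000168), mcm2 at 70.8 and 68.6 CPM (0.80 ± 0.16, adjusted p = 0.001) and lig1 at 50.4 and 39.0 CPM (0.77 ± 0.22, adjusted p = 0.0292). In chondrocytes 7 of 15 replication genes were higher (15.7% of all genes), led by cdc6 at 6.7 and 8.0 CPM (1.06 ± 0.27, adjusted p = 0.00571), gins2 at 14.7 and 12 CPM (0.86 ± 0.18, adjusted p = 0.000999) and the thymidylate synthase gene tyms at 11.3 and 14.1 CPM (0.60 ± 0.19, adjusted p = 0.0257). In the tcf21 and foxd1 fibroblast class mcm5 (69.1 and 76.2 CPM, 0.95 ± 0.19, adjusted p = 0.000784) and mcm2 (75.2 and 80.3 CPM, 0.60 ± 0.17, adjusted p = 0.0196) were higher (7.72% of all genes). In broad mesenchyme mcm5 (0.63 ± 0.14, adjusted p = 0.00243) and gins2 (0.60 ± 0.17, adjusted p = 0.0145) were higher (16.2% of all genes) and plk1 was lower (-0.86 ± 0.30, adjusted p = 0.0446; 2.57% of all genes). The gene mcm5 was called in 3 of these 4 classes and in pericytes. In tenocytes, chondrocytes and the tcf21 and foxd1 class edgeR called 0 mitosis genes in either direction, as did DESeq2, and 0 passed an unadjusted p under 0.05.

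In broad mesenchyme and in the tcf21 and foxd1 fibroblast class the 2 genes called higher, of 35, were a smaller share than that of all genes tested. With library 1 or 2 of the class left out, 1 and 1 genes were called in tenocytes, and 4 and 1 in chondrocytes. In the tcf21 and foxd1 fibroblast class 2 genes were called without library 1 and 1 without library 2, and in broad mesenchyme 2 and 0 were called higher. In chondrocytes the other genes of S phase pointed the same way, with 9 of 35 other replication genes higher, led by the chromatin assembly gene chaf1b (1.36 ± 0.24, adjusted p = 0.000139), and the G1 and S transcription factor gene e2f1 was higher as well (1.16 ± 0.27, adjusted p = 0.0025). The inhibitor gene cdkn1cb was higher in chondrocytes (1.48 ± 0.11, adjusted p = 4.5e-11), tenocytes (1.13 ± 0.13, adjusted p = 5.9e-07), osteoblasts (1.12 ± 0.14, adjusted p = 2.5e-06) and broad mesenchyme (1.11 ± 0.11, adjusted p = 3.9e-08).

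In osteoblasts and in the cilp and myoc fibroblast class edgeR called 0 of the 35 genes in either direction. At an unadjusted p under 0.05, 2 were higher in osteoblasts and 4 in the fibroblast class, and DESeq2 called 1 and 0. The shares of all genes at that threshold and by DESeq2 were not counted, so these counts cannot be set against a background. In the fibroblast class the gene bub1 had no UMI in either library, and 3 counts over both libraries would be 3.0 CPM. In epidermis 3 genes were lower (11.1% of all genes tested): nusap1 at 3.6 and 4.4 CPM (-1.07 ± 0.37, adjusted p = 0.025), ccna2 at 3.9 and 2.9 CPM (-1.04 ± 0.32, adjusted p = 0.0112) and fen1 at 17.3 and 18.8 CPM (-0.58 ± 0.16, adjusted p = 0.00609). These 3 of 35 were a smaller share than that of all genes. Without library 1 or 2 of the epidermis class 1 and 0 were called lower.

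Lower levels of both gene groups were found in fin mesenchyme and skeletal muscle. In fin mesenchyme, which holds actinodin and posterior Hox gene transcripts, 10 of 20 mitosis and 9 of 15 replication genes were lower, where 8.53% of all genes tested were called lower. The medians were -1.05 and -0.88, beside 0.06 over all genes. The kinase gene aurka was at 0 and 1.0 CPM (-2.35 ± 0.54, adjusted p = 0.00131), the cytokinesis motor gene kif23 at 0.33 and 1.2 CPM (-2.23 ± 0.65, adjusted p = 0.0096) and mki67 at 5.9 and 16.2 CPM (-1.87 ± 0.46, adjusted p = 0.00234). For all 3 genes both libraries were below those of pericytes and of broad mesenchyme, and with 1 library of the class left out 9 or 10 of the 35 genes were called. The replication inhibitor gene gmnn, which keeps cdt1 in check after S phase, was lower too (-2.05 ± 0.23, adjusted p = 5.1e-08), in a list of other replication genes of which 12 of 35 were lower.

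Skeletal muscle fibres had 24 of the 35 genes lower (10 mitosis and 14 replication genes), where 13.9% of all genes tested were called lower. The medians were -2.05 and -2.29, beside -0.20 over all genes. Among genes with UMIs, rrm2 had the largest difference (-3.74 ± 1.16, adjusted p = 0.013), with 3 UMIs over both libraries. Its ratio in CPM to the geometric mean of the other classes was 0.0396 (exact 95% Poisson interval of the count 0.00816 to 0.116). It was followed by tyms (-3.33 ± 0.59, adjusted p = 5.3e-05), with 2 UMIs and a ratio in CPM of 0.053 (0.00641 to 0.191). The ratios in CPM leave out the TMM factors of the class (0.577 and 0.568), which the log2 differences include. Both ratios lie below those that the log2 differences imply. For cdc20 no UMI was counted among 3067092 UMIs of the class. Against a floor of 3 counts over both libraries it was, in CPM, at least 7.11-fold lower than the geometric mean of the other classes. With the TMM factors this bound would be smaller. The smallest called difference was that of top2a at 0.78 and 7.8 CPM (-1.55 ± 0.54, adjusted p = 0.028). With the class reduced to library 2, 14 genes were called, and with it reduced to library 1, 19. Of the other genes of the pathway, 21 of 47 mitosis and 22 of 35 replication genes were lower. Of 19 inhibitor genes 7 were higher and 6 lower, where 3164 of all 15787 genes tested were called higher. Furthest up among the inhibitor genes was cdkn1ca, the gene of the Cdk inhibitor p57 (3.34 ± 0.36, adjusted p = 3.7e-08).

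In pigment and immune cells the calls fell on replication genes alone. In pigment cells 8 of 15 replication genes were lower (6.77% of all genes tested), with mcm5 (-3.78 ± 0.43, adjusted p = 1.8e-07; 3 UMIs, a ratio of 0.0755 with a counting interval of 0.0156 to 0.221) and lig1 at 3.1 and 9.0 CPM (-2.10 ± 0.43, adjusted p = 0.000735) furthest down, and 4 without library 1. The median of the mitosis genes was -1.73 (-1.58 with bub1, which had no UMI, at its bound), and edgeR called 0 of the 20 mitosis genes there, with 8 lower at an unadjusted p under 0.05 and 3 by DESeq2. The shares of all genes for the last 2 counts were not counted. The class held 9 mitosis UMIs in library 1. In immune cells 7 of 15 replication genes were lower (14.6% of all genes tested), led by gins2 (-1.72 ± 0.57, adjusted p = 0.0359; 3 UMIs, a ratio of 0.265 with a counting interval of 0.0546 to 0.774) and mcm2 at 14.1 and 14.4 CPM (-1.49 ± 0.26, adjusted p = 6.07e-05), and 3 without library 2 or with doublets kept. Of the mitosis genes 0 were called in immune cells by edgeR or DESeq2, and 0 passed an unadjusted p under 0.05. For cdc6 no UMI was counted in immune cells, in CPM at least 2.34-fold below the geometric mean of the other classes at the floor of 3 counts. This bound and the ratios given for pigment and immune cells leave out the TMM factors. The summed mitosis level of immune cells was 59.8 CPM in library 1 and 423 CPM in library 2, the widest ratio between the libraries of a tested class, and 0 of 59 and 3 of 66 cells had UMIs of at least 2 mitosis genes at 1000 UMIs per cell.

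The share of cells with division genes in each class was described per library after each cell had been thinned to 1000 UMIs, which no kept gated cell was too shallow for. A cell was counted when it held UMIs of at least 2 of the 20 mitosis genes, or of at least 2 of the 15 replication genes. Over all kept cells these shares were 3.80% and 4.25% for mitosis and 11.8% and 12% for replication, and without thinning 10.7% and 10.7%, and 36.3% and 37.1%. The intervals below are exact 95% Clopper-Pearson intervals.

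In the glia and neural progenitor class 39 of 121 cells (32.2%, 24.0% to 41.3%) and 45 of 163 cells (27.6%, 20.9% to 35.1%) held mitosis genes in libraries 1 and 2. In dlx and shox mesenchyme the shares were 13.4% (9.38% to 18.4%) and 15.9% (11.8% to 20.8%), below those of glia and neural progenitors with no overlap of the intervals within a library. Endothelial cells had 3 of 33 (9.09%, 1.92% to 24.3%) and 6 of 42 (14.3%, 5.43% to 28.5%), and these wide intervals overlapped those of dlx and shox mesenchyme. Osteoblasts followed with 3 of 46 (6.52%, 1.37% to 17.9%) and 3 of 58 (5.17%, 1.08% to 14.4%), and pericytes with 10 of 260 (3.85%, 1.86% to 6.96%) and 20 of 409 (4.89%, 3.01% to 7.45%).

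Skeletal muscle and neurons were taken for comparison as classes held to be post-mitotic. The neuron class gives no floor, since its summed mitosis level was 389 and 475 CPM, against 14.1 and 70.8 CPM in skeletal muscle. Thinning counts all UMIs of a cell and, like CPM, makes no use of the TMM factors. In skeletal muscle 0 of 63 and 0 of 84 cells held mitosis genes, where 3 counts, the limit that a count of 0 allows, would be 4.76% and 3.57%, and the exact intervals reach 5.69% and 4.30%. Without thinning 1 and 4 of these cells held them (1.59% and 4.76%), at median depths of 18484 and 18561 UMIs before thinning, against 8206 and 7854 in glia and neural progenitors. In neurons 2.64% (1.37% to 4.57%) and 3.15% (1.96% to 4.78%) of cells held them, at median depths of 3136 and 3270 UMIs. The shares of pericytes, osteoblasts and epidermis lay above those of neurons in both libraries, but their intervals overlapped. Overlap of intervals is not a test, and a difference from the neuron level was not tested. Smooth muscle (1.43% and 1.8%), tenocytes (1.82% and 1.97%), chondrocytes (1.60% and 2.04%), broad mesenchyme (1.99% and 1.83%) and fin mesenchyme (0.820% and 0.929%) lay below the neurons in both libraries. The intervals of these 5 classes overlapped those of neurons in each library, and these differences were not tested either. A share below that of the neuron class does not place a class below a post-mitotic level.

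**Figure D3:**
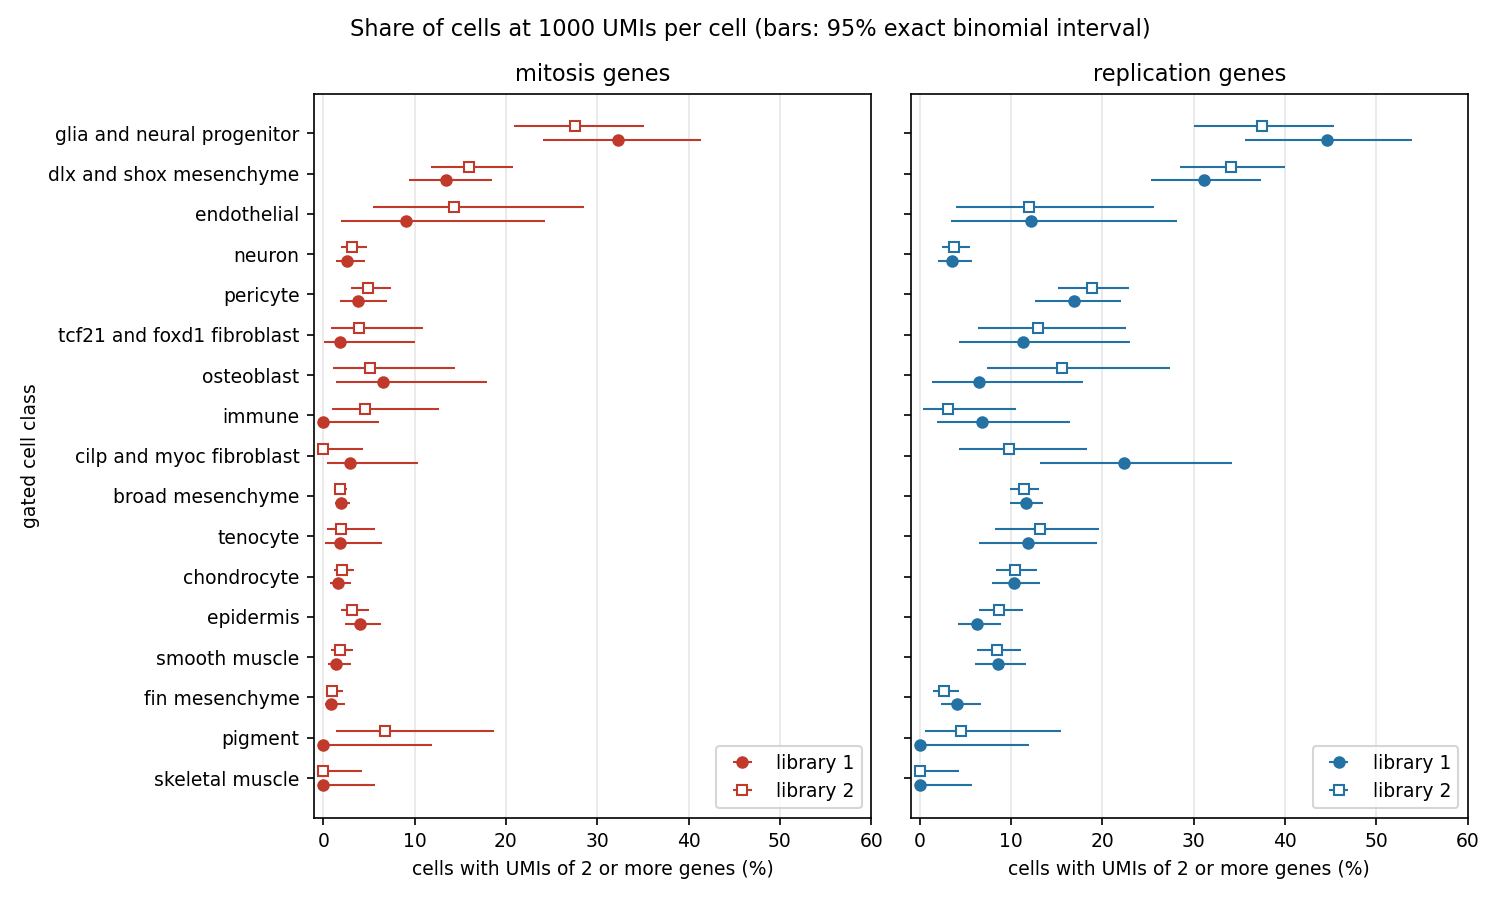
Percent of cells of each tested class with UMIs of at least 2 mitosis genes (left) or at least 2 replication genes (right) after thinning to 1000 UMIs per cell, with 1 point per library and the exact 95% binomial interval as a bar. Glia and neural progenitors lie at 32.2% and 27.6% for mitosis, all other classes under 20%, and pericytes reach 16.9% and 18.8% for replication while neurons stay at 3.52% and 3.75%.

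For replication genes the order of the classes changed below the first places. Glia and neural progenitors had 44.6% and 37.4% of cells with at least 2 replication genes and dlx and shox mesenchyme 31.1% and 34.1%, and the intervals of these classes overlapped in library 1 (35.6% to 53.9% and 25.3% to 37.4%) and in library 2 (30% to 45.3% and 28.5% to 40.0%). Pericytes stood at 16.9% (12.6% to 22.0%) and 18.8% (15.2% to 23.0%), smooth muscle at 8.55% (6.06% to 11.6%) and 8.45% (6.28% to 11.1%). Within each library the intervals of pericytes and smooth muscle did not overlap. Neurons were at 3.52% and 3.75%, fin mesenchyme at 4.1% and 2.6%, and skeletal muscle at 0 of 63 and 0 of 84.

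Some cells held both gene groups. Of the glia and neural progenitor cells with mitosis genes, 59.0% and 46.7% also held replication genes, against 25.0% and 25.0% in dlx and shox mesenchyme, 20% and 30% in pericytes (10 and 20 cells) and 33.3% and 38.1% in neurons (12 and 21 cells); these differences were not tested. Cells with mitosis genes were deeper than others before thinning, with medians of 9550 and 10715 UMIs against 5559 and 5903 over all kept cells.

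By number, the cells with mitosis genes came from many classes. Of 215 and 313 such cells in the libraries, glia and neural progenitors gave 18.1% and 14.4%, dlx and shox mesenchyme 14.9% and 14.1%, broad mesenchyme 11.6% and 9.27%, and epidermis 8.37% and 5.75%. Cells left without a class, because they met no gate or tied between classes, gave 21.9% and 25.9%. Pericytes gave 4.65% and 6.39%, and endothelial cells, of which there were few, 1.40% and 1.92%. The erythroid class, with 14 and 30 cells too small for the test, held 574 and 983 CPM of mitosis genes and 2335 and 1886 CPM of replication genes, which for replication lay between dlx and shox mesenchyme and the glia and neural progenitor class. The oligodendrocyte and Schwann class, with 10 and 12 cells, held 76 mitosis UMIs in library 1, 1 of its cells there passing the count of genes, and 0 in library 2.

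In the bulk libraries the authors compared um148 with wild-type cells. The direction of their fold change was read from the totals: with um148 as the numerator the wild-type total comes to 20284258 normalized counts, near the mean um148 total of 19212955, and with um148 as the denominator to 91949403. The wild-type libraries were not analysed here. Of the 20 mitosis genes, 14 had a lower level in um148 (adjusted p under 0.05 in the authors' deposited table), where 5.13% of the 16853 genes with an adjusted p were called lower. Of the 14 replication genes 0 were called, with 3 lower and 0 higher at an unadjusted p under 0.05. The share of all genes at an unadjusted p under 0.05 was not counted, here or for the lists and markers below. The median log2 fold change was -1.26 over the mitosis genes and -0.47 over the replication genes, beside 0.02 over all genes. Whether the gene groups differ from each other in um148 was not tested, and in such bulk samples fewer dividing cells and less RNA of these genes per cell cannot be told apart.

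The values of the kinases and cyclins in um148 libraries 1, 2 and 3 come first. The polo kinase gene plk1 had normalized read counts of 228, 285 and 197, with a log2 fold change of -1.80 ± 0.34 and an adjusted p of 8.61e-06 in the authors' deposited table. The standard errors after ± are not in that table and were derived from its test score. The mitotic kinase gene cdk1 was at 201, 301 and 160 (-1.61 ± 0.36, adjusted p = 0.000334, authors' deposited table). Its cyclin partner ccnb1 was at 216, 143 and 201 (-1.47 ± 0.36, adjusted p = 0.00123, authors' deposited table). In all 3 genes each um148 library lay below the wild-type mean that the table implies, taken as the um148 mean divided by the authors' fold change.

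The aurora kinases were lower as well. In the authors' deposited table aurka, which matures spindle poles, was at 117, 62.9 and 80.2 (-1.41 ± 0.37, adjusted p = 0.00319). The chromosomal passenger kinase gene aurkb was at 229, 200 and 137 in the authors' deposited table (-1.06 ± 0.38, adjusted p = 0.0458). Its partner birc5a had the largest change of the members, at 52.5, 127 and 104 (-1.81 ± 0.39, adjusted p = 0.000171, authors' deposited table). The coefficient of variation of birc5a between the um148 libraries was 40.3%, with library 1 lowest.

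Spindle and chromosome genes followed. In the authors' deposited table nusap1 was at 193, 179 and 168 (-1.41 ± 0.33, adjusted p = 0.00055), and the spindle assembly factor gene tpx2, which activates aurka, at 295, 413 and 307 (-1.28 ± 0.30, adjusted p = 0.000552). The motor genes kif11, which pushes spindle poles apart, and kif23, which works in the midzone, were at 242, 174 and 186 (-1.07 ± 0.32, adjusted p = 0.0136) and at 157, 135 and 136 (-1.38 ± 0.35, adjusted p = 0.00179) in the authors' deposited table. The condensin gene ncapg was at 185, 243 and 242 (-1.24 ± 0.35, adjusted p = 0.00735) and mki67 at 1070, 869 and 1155 (-1.01 ± 0.30, adjusted p = 0.0137), again from the authors' deposited table. The coefficient of variation between libraries was 6.79% for nusap1, 8.97% for kif23, 14.3% for mki67, 14.9% for ncapg, 18.2% for kif11 and 19.3% for tpx2.

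The genes that end mitosis were lower too: in the authors' deposited table ube2c was at 247, 275 and 230 (-1.41 ± 0.27, adjusted p = 9.08e-06) and cdc20 at 166, 120 and 95.1 (-1.28 ± 0.40, adjusted p = 0.019). The 6 mitosis genes not called had log2 fold changes in the authors' deposited table of -0.80 for top2a (adjusted p = 0.0608), -0.73 for kpna2, -0.70 for aspm, -0.60 for ccna2, -0.24 for cenpf and 0.41 for bub1. The gene bub1 had the widest spread of the members, at 273, 256 and 83.2, a coefficient of variation of 51.5%. For 18 of the 20 mitosis genes all 3 um148 values were below the implied wild-type mean. That mean is derived from the fold change itself, so a gene with a large negative fold change tends to meet this count. The share of all genes that meet it was not counted.

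**Figure D4:**
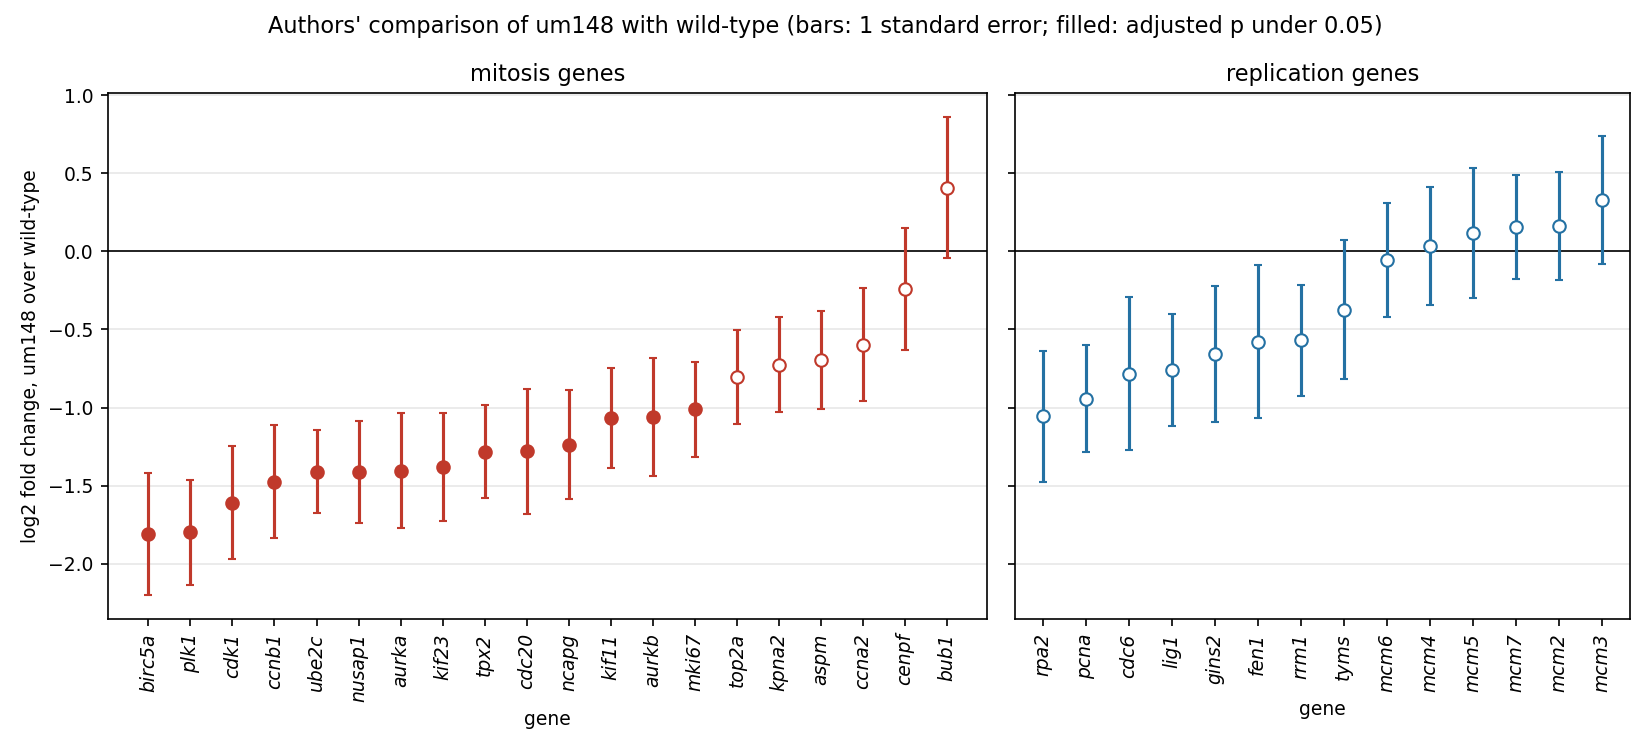
Log2 fold change of um148 over wild-type in the authors' deposited table for 20 mitosis genes (left) and 14 replication genes (right), with 1 standard error as bars; filled points have an adjusted p under 0.05. The 14 filled points are all mitosis genes between -1.81 and -1.01, and the replication genes run from -1.06 to 0.33 with no filled point.

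Among replication genes the clamp, the single-strand binding subunit and the helicase genes took different places. In the authors' deposited table pcna was at 3347, 2596 and 3792 (-0.94 ± 0.34, adjusted p = 0.051) and rpa2 at 233, 310 and 463 (-1.06 ± 0.42, adjusted p = 0.083), the nearest to the threshold. The helicase genes mcm2 to mcm7 had fold changes between -0.05 (mcm6) and 0.33 (mcm3) on the log2 scale in the authors' deposited table, and their adjusted p-values ran from 0.667 to 0.97. For mcm4, at 1963, 1391 and 1669, the log2 fold change was 0.03 ± 0.38. The remaining genes lay between -0.78 for cdc6 and -0.37 for tyms in the authors' deposited table. For 8 of the 14 genes all 3 um148 values were below the implied wild-type mean, with the same limits as for the mitosis genes.

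**Figure D5:**
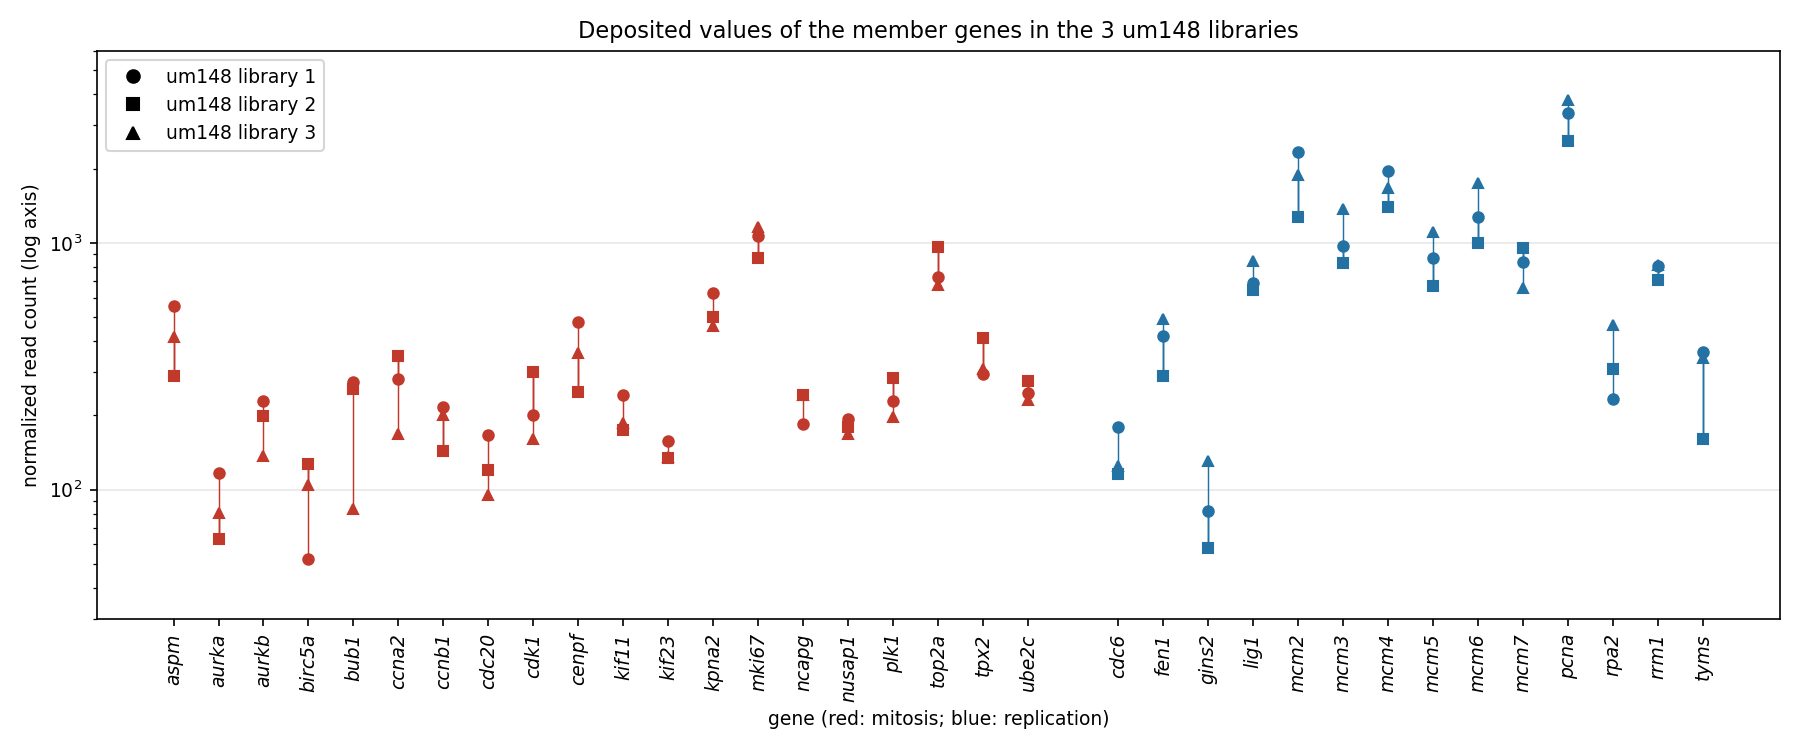
Normalized read counts (log axis) of each gene in um148 libraries 1 (circle), 2 (square) and 3 (triangle), with mitosis genes in red and replication genes in blue. Library 2 is lowest for 12 of the 14 replication genes and library 3 is highest for 9 of them, while for the mitosis genes library 3 is lowest for 10 of 20 and library 1 highest for 11.

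The um148 libraries did not order the gene groups alike. The summed mitosis genes were 6542, 6122 and 5561 normalized counts in libraries 1, 2 and 3, and the summed replication genes 14367, 10992 and 15442. Library 3 was thus lowest for mitosis and highest for replication, and library 2 was lowest for replication. Against the implied wild-type means the median log2 ratio of the mitosis genes was -0.97, -1.25 and -1.39 in the 3 libraries and that of the replication genes -0.28, -0.82 and -0.14, beside -0.01, -0.04 and -0.04 for all genes.

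The other genes of the pathway were counted in the authors' deposited table, with no test between the lists. Of all 16853 genes with an adjusted p, 5.13% were called lower. The shares of other replication genes and of inhibitor genes called lower lay closer to this than that of other mitosis genes. Of 48 other mitosis genes 12 were lower, with a median log2 fold change of -0.75, led by the spindle checkpoint gene mad2l1 (-1.78 ± 0.36, adjusted p = 4.76e-05), the kinetochore gene spc24 (-1.70 ± 0.37, adjusted p = 0.000223), cdca8 of the chromosomal passenger complex (-1.65 ± 0.39, adjusted p = 0.000656) and the kinetochore gene knstrn (-1.61 ± 0.38, adjusted p = 0.000733). Of 35 other replication genes 3 were lower, with a median of -0.32: dut, whose enzyme keeps uracil out of DNA (-1.94 ± 0.25, adjusted p = 6.36e-12), the folate enzyme gene dhfr (-1.24 ± 0.44, adjusted p = 0.0453) and gins1 (-1.10 ± 0.38, adjusted p = 0.0343). Of 17 G1 and S entry genes tested by the authors 0 were called, with 2 lower at an unadjusted p under 0.05, and of 20 inhibitor genes 2 were lower, cdkn1cb (-2.48 ± 0.60, adjusted p = 0.00102) and gadd45ba (-1.86 ± 0.38, adjusted p = 4.95e-05), all in the authors' deposited table.

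Markers of the classes with high division genes and of other cell types are given beside these changes, from the authors' deposited table. Of the 8 markers of dlx and shox mesenchyme 0 were called (median log2 fold change -0.44), 2 of them past an unadjusted p of 0.05, and of the 8 endothelial markers 0 were called, with a median of -0.33 and 2 past an unadjusted p of 0.05. Of the 8 glia and neural progenitor markers 1 was lower, her4.2 (-1.87 ± 0.46, adjusted p = 0.00128), the median was -0.01 and the median coefficient of variation between um148 libraries was 59.1%. Markers of other cell types moved in both directions: 2 of 7 pericyte markers were lower, kcnj8 (-1.05 ± 0.33, adjusted p = 0.0188) and rgs5b (-2.97 ± 1.03, adjusted p = 0.0377), 3 of 7 osteoblast markers were lower, 2 of 6 markers of the cilp and myoc fibroblast class were lower (median -0.76), 3 of 8 epidermis markers were higher and 1 lower, and 2 of 6 skeletal muscle markers were higher. In each of fin mesenchyme, the tcf21 and foxd1 class, pigment and immune cells 1 marker was higher, and in broad mesenchyme 1 was lower. Over all 16853 genes with an adjusted p, 1041 were called higher and 864 lower. The part of these cell types in the lower mitosis genes was not tested.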

How the data were processed

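Cells positive for a pdgfrb reporter were profiled as UMI counts in 2 single-cell libraries and as a table of 3 bulk um148 libraries. The deposited single-cell counts are whole UMI counts per gene and barcode; the submitters' processing notes name CASAVA 1.8.2, STAR, RSEM, DESeq2, Cell Ranger 3.1.0 and GRCz11, with no role for each. The authors' bulk table holds a normalized signal in each um148 column, which lies on whole multiples of 1 step per library. The authors also deposited, per gene, a log2 fold change, its linear ratio, a test score, p-values and the −log10 of the adjusted p. Standard errors printed for that table are the log2 fold change divided by the square root of the score. The direction, um148 over wild-type, was read from the totals that the ratio implies. Each um148 column totals 16997792, 19409286 or 21231786. The table holds 3 columns of per-sample values that were not used, since no sample of the series labels them.

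Barcodes with under 500 genes, a mitochondrial share over 10% of UMIs (13 genes) or a high scrublet score (0.8% of barcodes per 1000, since the automatic threshold marked 0 cells in either library) were removed. A cell joined a class with UMIs of at least 3 of its markers and more than of any other class, and joined broad mesenchyme where it reached no other gate but held at least 3 of that class's markers; names rest on these rebuilt gates. UMI counts were summed per class and library and tested with edgeR 4.0.16 (TMM factors, quasi-likelihood test, 34 sums, 17 residual degrees of freedom), and with DESeq2 1.42.0 as an alternative. Standard errors printed for edgeR are the size of the log2 difference divided by the square root of the F value of its test. They rest on the spread over all 34 sums, not on the 2 libraries of a class alone. The code was tested on simulated counts. Classes needed 20 cells in each library. CPM is a class's UMIs of a gene scaled by all its UMIs. CPM, ratios to the geometric mean of other classes, floors and thinned shares make no use of the TMM factors. Sums of 1 library pair across classes, since they come from the same library of cells; the correlation of their deviations over 136 pairs of classes had a median of 0.048 and was over 0.1 in 20. Thinning drew 1000 UMIs per cell with a fixed seed.

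Per class, up to 3 called genes of highest and of lowest difference are named, of other lists up to 4, and in the authors' table all called members. The members, markers and lists were chosen with earlier results of these data known. Alternatives were other size factors, no filter on low counts, the library block, left-out libraries, gates of 2 or 4 markers, a mitochondrial limit of 20%, kept doublets, 2000 UMIs or 3 genes for shares, and other thresholds for the authors' table. Promoter and protein sequences were not used here.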

Additional observations from a re-analysis of the deposited data

Results flagged for a closer look

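Barcodes left out of the comparisons also held division transcripts, and these signals lie outside the main measurement. In barcodes with under 500 genes, 524 UMIs of the mitosis genes and 1017 of the replication genes were counted in library 1, and 466 and 646 in library 2. In barcodes with a mitochondrial share over 10%, the counts were 2782 and 5951 in library 1, and 183 and 437 in library 2. In barcodes removed as doublets by score they were 1901 and 3253 in library 1, and 2668 and 5747 in library 2. Scaled to the total UMIs, the mitosis genes were at 187 and 190 CPM in the barcodes with few genes and at 189 and 95.1 CPM in those with a high mitochondrial share, below the 302 and 345 CPM of kept cells. In the doublets they were at 378 and 289 CPM, above kept cells in library 1 and below them in library 2. There are no control samples for these barcodes, and each count is above the 3 counts that a count of 0 allows.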

How the results depend on the processing

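The higher calls of all 35 genes in glia and neural progenitors held under every alternative run for the classes, and those in dlx and shox mesenchyme under every one but leaving out its library 2 (33 genes). No log2 difference of a named gene and no median log2 ratio in um148 reversed its direction under any alternative. The named genes were the called ones of largest difference, and counts of genes and shares of cells have no direction to reverse. Of the differences of single genes 82 of 528 lost their call, and 92 of 272 mean shares moved by more than the spread between libraries. All 92 came from alternatives other than leaving out a library. With 2 libraries, leaving out 1 cannot move a mean share by more than their SD, so those entries could not count as moved. Counts of genes called that moved by over 1.5 times are given by setting, and the cause was not tested. The share of all genes called was not counted under the alternatives, so counts under them, here and above, have no background beside them. With no filter on low counts, the counts called higher were 15 in pericytes (main 5), 2 in osteoblasts, 1 in epidermis and 1 in immune cells (main 0 each), and those called lower were 21 in pigment cells (main 8), 12 in smooth muscle (main 7), 3 in broad mesenchyme (main 1), 1 in chondrocytes and 1 in the cilp and myoc class (main 0). DESeq2 called 29 lower in fin mesenchyme (main 19), 5 in epidermis (main 3) and 2 in broad mesenchyme, and 1 higher in osteoblasts.

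With the library as a replicate block, smooth muscle had 11 lower (main 7) and glia and neural progenitors against dlx and shox mesenchyme 10 higher (main 6); the block moved no other count by over 1.5 times. With gates of 2 markers, lower counts were 4 in broad mesenchyme, 13 in pigment cells, 1 in epidermis and 1 in the cilp and myoc class, and higher counts 2 in immune cells, 0 in broad mesenchyme and 3 for glia and neural progenitors against dlx and shox mesenchyme. With gates of 4 markers, higher counts were 14 in pericytes, 2 in neurons, 2 in tenocytes, 2 in smooth muscle and 1 for glia and neural progenitors against dlx and shox mesenchyme, and lower counts 2 in smooth muscle, 1 in epidermis and 0 in broad mesenchyme; the cilp and myoc and the tcf21 and foxd1 classes were then too small to test. A mitochondrial limit of 20% gave 1 higher in epidermis, 2 in neurons and 2 for glia and neural progenitors against dlx and shox mesenchyme, and 1 lower in smooth muscle and 0 in broad mesenchyme. Keeping doublets gave 7 higher in endothelial cells and 1 in immune cells, and 1 lower in smooth muscle and 3 in immune cells. At an adjusted p under 0.1 the authors' table held 2 replication genes lower.

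Leaving out a library of the class tested, with its lone sum assumed to vary like the other classes, gave these ranges of counts: higher 2 to 3 in endothelial cells, 1 to 3 in neurons, 1 to 4 in chondrocytes, 2 to 5 in pericytes, 1 to 1 in tenocytes, 1 to 2 in the tcf21 and foxd1 class, 0 to 2 in broad mesenchyme, 0 to 1 in the cilp and myoc class, 0 to 2 in immune cells, 1 to 3 for glia and neural progenitors against dlx and shox mesenchyme and 2 to 6 for pericytes against smooth muscle; lower 9 to 10 in fin mesenchyme, 14 to 19 in skeletal muscle, 0 to 1 in smooth muscle, 0 to 1 in epidermis, 4 to 7 in pigment cells, 3 to 8 in immune cells and 0 to 0 in broad mesenchyme. Without um148 library 1, 2 or 3 the median log2 ratio was -1.22, -1.23 or -1.16 for mitosis genes and -0.58, -0.24 or -0.56 for replication genes. Depth limits the small classes: pigment cells held 9 and endothelial cells 429 mitosis UMIs in library 1.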
